A study of Mus musculus with 6 samples.

Results

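The Rab and Arl genes encode small GTPases of membrane traffic. Members were chosen by symbol, as every gene of the count table named Rab or Arl followed by a number and at most a short letter suffix, which gave 70 genes (55 Rab and 15 Arl) of the 15565 in the table. The samples are hepatocytes, the parenchymal cells of the liver, from 3 C57BL/6 mice aged 2 months. The cells of each mouse had been sorted into TERT(High) and TERT(Low) populations, and polyadenylated RNA of each population was sequenced, so there were 3 TERT(High) and 3 TERT(Low) libraries. The genotype of all mice was Tert(CreERT2/+); R26(LSL-Tomato/+), that is, a recombinase activated by tamoxifen sat in 1 Tert allele and a red fluorescent reporter that Cre switches on in 1 R26 allele. Both populations therefore have CreERT2 in place at an allele of the gene that defines them, and neither the sort gate nor any tamoxifen dosing is given in the labels. The comparison sets the RNA levels of these GTPase genes in hepatocytes with high Tert beside those with low Tert in the same livers.

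A Rab binds GDP when inactive and GTP when active. Exchange factors (GEFs) load GTP, GTPase-activating proteins (GAPs) end the active state, and active Rabs recruit effectors such as tethers and motors to 1 kind of membrane. Most Rabs are held on membranes by prenyl groups at their C terminus, which Rab escort protein and geranylgeranyl transferase add, and GDP dissociation inhibitor extracts them. Arl proteins are relatives of the Arf GTPases and act at the Golgi, on lysosomes and in cilia. In hepatocytes this machinery carries secreted plasma proteins from the endoplasmic reticulum (ER) through the Golgi to the blood side, and receptors and transporters through endosomes to the sinusoidal and bile canalicular membranes.

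The results below turn on the Rab1 and Rab5 genes, whose paralogs gave fold changes of different sign. The stretches show how far their coding sequences have diverged, which bears on whether reads can be assigned. Each covers 60 coding bases around the phosphate-binding loop, the part of the GTPase fold that holds the nucleotide, and lies within exon 2 of its GENCODE M21 transcript on GRCm38. Capitals mark bases that differ from Rab1a, for Rab1b, or from Rab5a, for Rab5b and Rab5c.
Rab1a, chr11:20215640-20215699, plus strand: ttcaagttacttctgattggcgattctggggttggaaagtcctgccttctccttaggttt
Rab1b, chr19:5105181-5105240, minus strand: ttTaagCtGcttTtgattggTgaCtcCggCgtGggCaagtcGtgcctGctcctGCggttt
Rab5a, chr17:53483973-53484032, plus strand: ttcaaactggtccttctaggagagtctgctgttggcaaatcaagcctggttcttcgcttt
Rab5b, chr10:128686791-128686850, minus strand: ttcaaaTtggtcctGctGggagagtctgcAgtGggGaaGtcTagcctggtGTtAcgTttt
Rab5c, chr11:100719958-100720017, minus strand: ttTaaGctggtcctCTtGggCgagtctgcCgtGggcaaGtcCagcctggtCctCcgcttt
Rab1b differed from Rab1a at 14 of these 60 bases, and Rab5b and Rab5c each differed from Rab5a at 12. Over the whole coding sequence Rab1a and Rab1b were 77.6% identical. The longest run shared by their full transcripts, untranslated regions included, was 38 nt. The coding sequence of Rab5a was 74.1% identical to that of Rab5b and 74.3% to that of Rab5c. The longest runs shared by full transcripts were 35 and 22 nt. The transcripts of Rab1a, Rab1b and Rab5c shared no 50 nt word with a transcript of another gene. Rab5a shared 9.06% of its 50 nt words with other genes, Pp2d1, Gm12045 and Rab5a-ps among them. Exons of Pp2d1 on the opposite strand cover 9.3% of the Rab5a transcript. Rab5b shared 13% of its 50 nt words, with Gm13991. The part of these shared stretches in the values of Rab5a and Rab5b was not tested.

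Library totals were 53585174 to 64065266 counts in TERT(High) and 55355819 to 76164917 counts in TERT(Low), and values are given as counts per 1000000 (CPM) after TMM scaling. Tert itself had 38, 33 and 30 counts in TERT(High), in the order of mice 1, 2 and 3 used throughout, against 21, 21 and 12 in TERT(Low), which do not overlap (log2 fold change 0.87, SE 0.44, edgeR adjusted p = 0.249). Hepatocyte markers summed to 129000 to 146000 CPM in TERT(High), against 116000 to 142000 CPM in TERT(Low), so the labelled cell type was met in each library. In the sorted populations, fewer cells of a type and less RNA per cell cannot be told apart. Other markers were unevenly spread over libraries. Stellate cell markers, all 11 of which were in the table, summed to 247 CPM in TERT(High) of mouse 1 and to 5.23 to 14.4 CPM elsewhere. Most of that sum was Col1a1, at 127 CPM, and Col1a2, at 105 CPM. Of the others, Reln (7.98 CPM), Col3a1, Dcn and Lrat were also highest in that library. Des, Pdgfrb, Colec11, Ecm1 and Hgf were not set apart there. Neuron and glia markers summed to 59.9 CPM in TERT(High) of mouse 3, and to 128 and 56.4 CPM in TERT(Low) of mice 1 and 3, against 3.42 to 10.1 CPM in the other 3 libraries. Macrophage markers summed to 20.0, 19.7 and 111 CPM in TERT(High), against 21.8, 17.3 and 52.9 CPM in TERT(Low). Endothelial markers summed to 51.9 to 87.3 CPM in TERT(High), against 39.6 to 47.7 CPM in TERT(Low), and 2 of their 11 genes were called higher. Neutrophil markers summed to 4.92 to 13 CPM in TERT(High), against 4.84 to 11.8 CPM in TERT(Low), and none of 6 tested was called. Cxcr2, the most abundant of the list, was lower in TERT(High) without overlap. It had 4.31, 2.77 and 2.68 CPM in TERT(High), against 4.52, 10.4 and 5.24 CPM in TERT(Low). S100a9, Ngp, Camp and Ltf lay the other way, higher in each TERT(High) library than in any TERT(Low) library, at low levels. S100a9 had 128, 115 and 42 counts in TERT(High), against 10, 19 and 31 in TERT(Low), and Ngp had 104, 95 and 21 counts in TERT(High), against 0, 12 and 5. The part of these markers in the members' values was not tested.

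Of the 70 genes, 64 (49 Rab and 15 Arl) had enough counts to be tested. Rab1b alone passed the threshold, an edgeR adjusted p under 0.05 over all 13288 genes tested, and it was lower in TERT(High). That is 1.56% of the tested members called, against 8.14% of all genes (4.43% higher and 3.71% lower). The members leaned to lower values in TERT(High): 45 of 64 (70.3%) had a negative log2 fold change, against 50.8% of all genes. Their median log2 fold change was -0.23, against -0.01 over all genes, and it was -0.28 for Rab and -0.03 for Arl genes. At an unadjusted p under 0.05, 1 member was higher, which was Rab5a, and 9 were lower, against 16.3% and 12.4% of all genes. The 2 populations did not overlap, with TERT(High) higher, for 3 members (4.69%, against 17.5% of all genes) and with TERT(High) lower for 15 members (23.4%, against 15.9%). The ratio within a mouse was above 1 in all 3 mice for 4 members (6.25%, against 28.2% of all genes) and below 1 in all 3 for 24 members (37.5%, against 26.6%).

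The choice of tool moved the number of calls. DESeq2 called Rab5a higher and Rab1b, Rab24, Rab28, Rab29, Rab5c and Rab8a lower, while it called 21.0% of all genes (11.3% higher and 9.60% lower). Limma-voom called Rab5a higher and Rab1b, Rab24, Rab5c and Rab8a lower, while it called 18.5% of all genes (10.2% higher and 8.30% lower). The authors' deposited table, which lists 53 members among 10858 genes, has Rab5a higher and the same Rab1b, Rab24, Rab5c and Rab8a lower at an adjusted p under 0.05. Those 5 (1 higher and 4 lower) are 9.43% of the members it lists, against 29.2% of its genes (15.8% higher and 13.4% lower). In the authors' deposited table the log2 fold changes of these members are 0.71 for Rab5a, -0.65 for Rab1b, -0.71 for Rab24, -0.54 for Rab5c and -0.48 for Rab8a. Their baseMean follows the deposited counts for most genes. Among members it departs by more than 1.2-fold only for Rab3c and Rab33b, at 2.60 and 1.99 times the value from the counts. In the authors' deposited table the log2 fold change of Rab3c is -0.20 (SE 0.35), while the counts gave -1.06 (SE 0.99). Rab6b has a baseMean of 141 there, against 139 from the counts. Its log2 fold change there is nevertheless -0.40 (SE 0.42), while the counts gave -1.40 (SE 1.78). The cause was not tested.

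**Figure D1:**
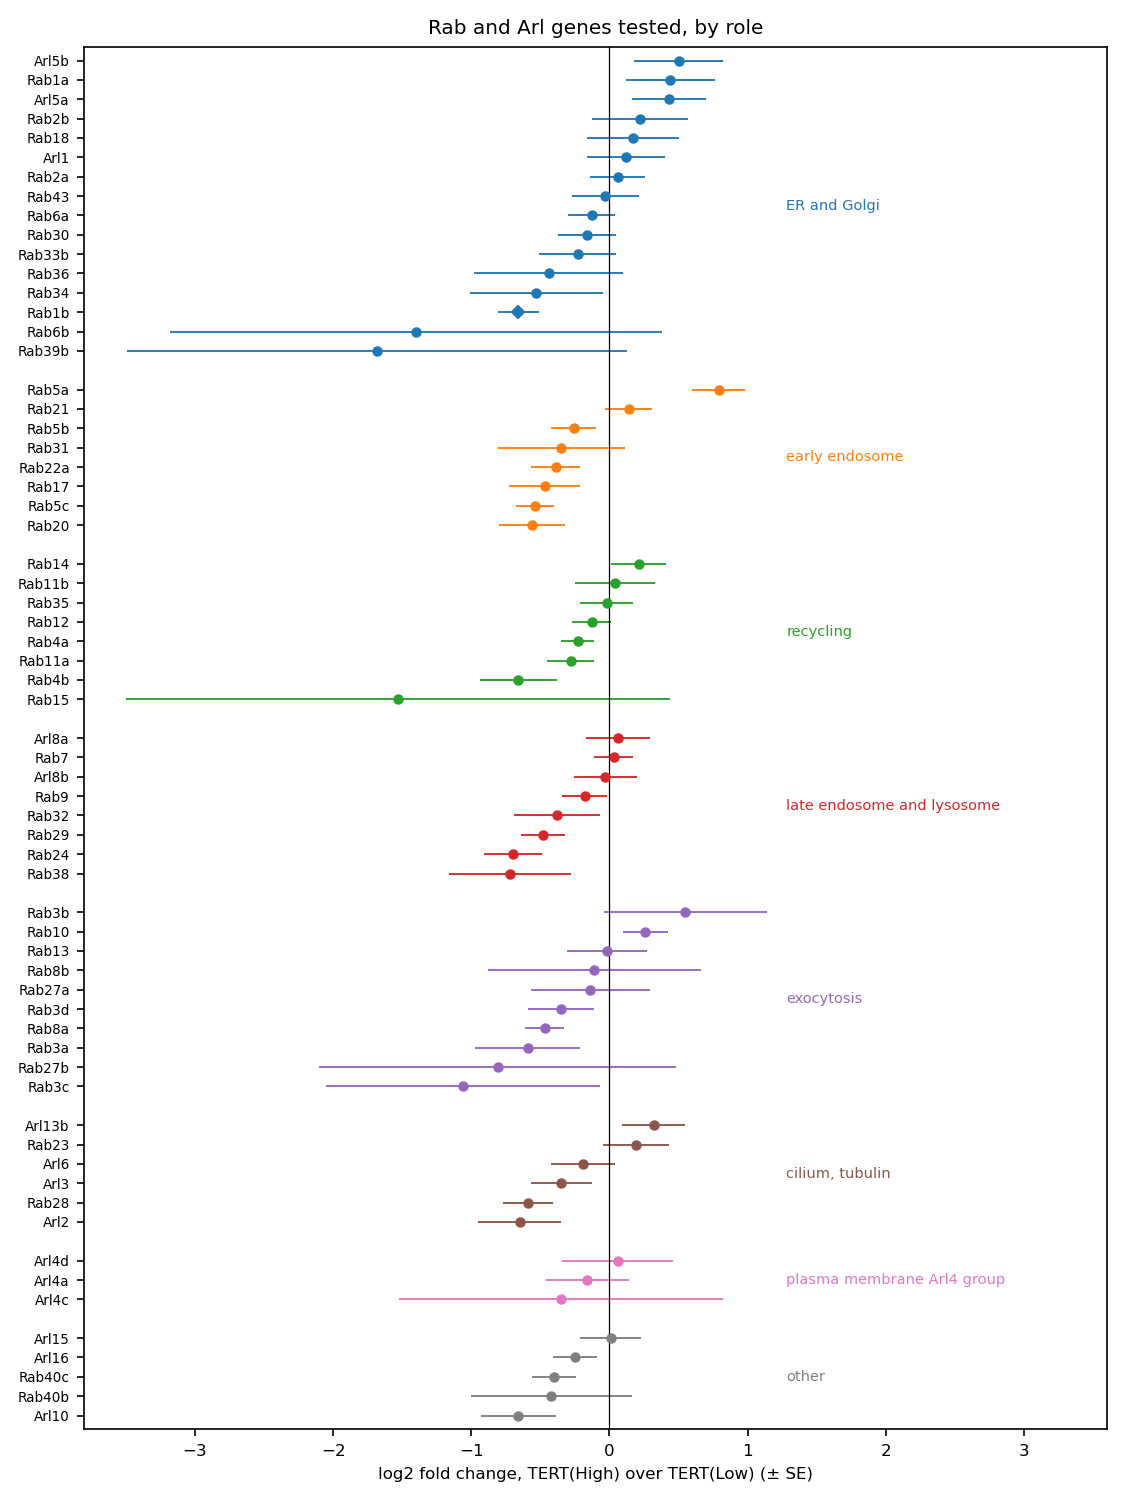
Log2 fold change of TERT(High) over TERT(Low) (horizontal axis) for the 64 tested Rab and Arl genes, grouped by role; points are edgeR estimates, bars are ± 1 SE and the diamond marks Rab1b, the member with an adjusted p under 0.05. The 45 negative values outnumber the 19 positive ones, Rab5a lies at the positive end at 0.79, and Rab39b, Rab15, Rab6b and Rab3c at the negative end have SEs of 0.99 to 1.97.

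The ER and Golgi group held 18 members, of which 16 were tested, and their median log2 fold change was -0.08. Rab1b, on chromosome 19 from 5099207 to 5106996, drives traffic from the ER to the Golgi. It had 105, 84.0 and 88.1 CPM in TERT(High), against 154, 150 and 132 CPM in TERT(Low). Every TERT(High) value lay below every TERT(Low) value. The means were 92.3 ± 11 and 145 ± 11.5 CPM (SD, n = 3 each), a log2 fold change of -0.66 (SE 0.15, edgeR adjusted p = 0.0474). With DESeq2 its adjusted p was 0.00102 and with limma-voom 0.0205. The call was lost in several settings. With an offset for transcript length and GC content the log2 fold change was -0.33 (edgeR adjusted p = 0.366). Without TERT(High) of mouse 2 or 3, or without TERT(Low) of mouse 1, 2 or 3, its edgeR adjusted p was 0.103 to 0.19 and its log2 fold change -0.72 to -0.61, in fits where edgeR called 0 of all genes. Without the 3 libraries with neuron and glia markers its log2 fold change was -0.67, a value with no usable test, since 2 TERT(High) libraries and 1 TERT(Low) library were left and edgeR called 0 of all genes.

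Rab1a, its paralog for the same step, on chromosome 11 from 20201412 to 20226856, had 136, 57.9 and 71.3 CPM in TERT(High), against 65.0, 66.6 and 64.6 CPM in TERT(Low). The TERT(High) library of mouse 1 was high and the other libraries lay close together, so the groups overlapped. It had a log2 fold change of 0.44 (SE 0.32, edgeR adjusted p = 0.426), and it was -0.07 without that library. Count ratios within a library are free of scaling between libraries. The log2 ratio of Rab1a to Rab1b counts was 0.38, -0.54 and -0.30 in TERT(High), against -1.24, -1.17 and -1.03 in TERT(Low). The ratio was higher in each TERT(High) library than in any TERT(Low) library. The difference between their fitted log2 fold changes was 1.09, and 0.48 with the length and GC offset.

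Several further Golgi members shared the high value in TERT(High) of mouse 1. Rab18, which acts on ER and lipid droplets, had 104, 48.1 and 47.6 CPM in TERT(High), against 56.9, 64.6 and 56.0 CPM in TERT(Low). Arl1, which recruits golgin tethers to the trans-Golgi, had 89.5, 43.1 and 53.4 CPM in TERT(High), against 61.0, 50.1 and 60.4 CPM in TERT(Low). In both genes only mouse 1 was high in TERT(High), and the fitted log2 fold changes of 0.17 for Rab18 and 0.12 for Arl1 became -0.35 and -0.30 without that library. Arl5a and Arl5b act at the trans-Golgi in retrieval from endosomes. Arl5a had 133, 68.7 and 100 CPM in TERT(High), against 65.9, 67.5 and 90.8 CPM in TERT(Low) (log2 fold change 0.43, SE 0.27). Arl5b had 13, 5.70 and 8.44 CPM in TERT(High), against 5.19, 6.63 and 7.38 CPM in TERT(Low) (log2 fold change 0.50, SE 0.32). The groups overlapped for both, and neither passed the test.

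A threshold chosen after these values were seen describes how far the pattern extends. TERT(High) of mouse 1 exceeded the mean of the other 2 TERT(High) libraries by more than 1.5-fold for 8 of the 16 tested ER and Golgi members and for 0 of the other 48 tested members. Over all genes tested the share was 11.4%, and over all 64 members it was 12.5%. The 8 genes were Rab18 (2.17-fold), Rab1a (2.11), Rab34 (2.03), Rab33b (1.86), Arl1 (1.85), Arl5b (1.84), Arl5a (1.57) and Rab2a (1.52). Just below the threshold lay Arl8b (1.47), Rab3d (1.46) and Rab24 (1.44), of other groups, so the count of 0 depends on where it was set. Rab33b and Rab34 are Golgi Rabs, and Rab2a acts between the Golgi and the ER. The same library carried the 247 CPM of stellate cell markers, mostly Col1a1 and Col1a2. It also carried erythroid markers at 207 CPM, against 17.5 to 61.0 CPM in the others. The part of both marker lists in the pattern was not tested.

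Of the remaining ER and Golgi members, Rab6a, which drives retrograde transport at the Golgi, averaged 39.3 ± 7.17 CPM in TERT(High), against 42.9 ± 2.33 CPM in TERT(Low) (SD, n = 3 each; log2 fold change -0.13, SE 0.17). Rab43, which acts in ER to Golgi transport, averaged 123 ± 16.8 CPM in TERT(High), against 126 ± 37.0 CPM in TERT(Low) (SD, n = 3 each), but 90.4% of its transcript lies in exons of Gm45140 on the same strand. The value of Rab43 therefore depends on how reads of both genes were counted. Rab2b is uncertain while the strand setting is unknown, since 77.6% of its transcript overlaps exons of Gm43766 or Tox4 on the opposite strand. Opposite-strand exons also cover 22.0% of the Rab6a transcript (Mrpl48) and 17.6% of that of Rab33b (Gm38160). The log2 fold changes of further members of this group were 0.22 for Rab2b, 0.06 for Rab2a, -0.16 for Rab30, -0.23 for Rab33b, -0.44 for Rab36 and -0.53 for Rab34, and none was called. With the length and GC offset Rab30 was at -0.98 (edgeR adjusted p = 0.129), and it was called lower with the offset plus a mouse block or plus DESeq2.

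Among the early endosome members, the paralogs Rab5a and Rab5c differed in direction, each without overlap between the populations. All 8 members of this group were tested, 6 had a negative log2 fold change, and the median was -0.37. The 3 Rab5 proteins all work in the fusion of endocytic vesicles with early endosomes. Rab5a, on chromosome 17 from 53479234 to 53507678, had 33.7, 23.7 and 24.7 CPM in TERT(High), against 14.5, 14.7 and 18.1 CPM in TERT(Low). Its TERT(High) values all lay above its TERT(Low) values. The means were 27.4 ± 5.50 and 15.8 ± 2.01 CPM (SD, n = 3 each), a log2 fold change of 0.79 (SE 0.19, edgeR adjusted p = 0.0543), which missed the threshold. It passed with DESeq2 (adjusted p = 0.01) and with limma-voom (adjusted p = 0.0343), and the length and GC offset left its log2 fold change at 0.70.

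Rab5c, on chromosome 11 from 100715003 to 100738215, lay the other way. It had 80.7, 73.2 and 63.6 CPM in TERT(High), against 106, 105 and 106 CPM in TERT(Low). The groups did not overlap, and the TERT(Low) values were nearly equal. The means were 72.5 ± 8.60 and 106 ± 0.733 CPM (SD, n = 3 each), a log2 fold change of -0.54 (SE 0.14, edgeR adjusted p = 0.0611). With the length and GC offset it was -0.24. Rab5b, the third paralog, had 82.8, 71.9 and 62.4 CPM in TERT(High), against 77.5, 91.1 and 90.7 CPM in TERT(Low), with overlapping groups and a log2 fold change of -0.26 (SE 0.16).

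The log2 ratio of Rab5a to Rab5c counts was -1.26, -1.62 and -1.36 in TERT(High), against -2.86, -2.83 and -2.55 in TERT(Low). The ratio was higher in each TERT(High) library than in any of TERT(Low). The mean ratios were -1.42 ± 0.19 and -2.75 ± 0.17 (SD, n = 3 each), a difference of 1.33. Rab5a to Rab5b gave -1.41 ± 0.16 in TERT(High) and -2.46 ± 0.16 in TERT(Low) (SD, n = 3 each), a difference of 1.05. The ratios of 22 pairs of same-numbered paralogs were compared with a two-sided exact permutation test. It took the libraries as independent and ignored their pairing by mouse. Its smallest possible p with 3 libraries against 3 is 0.1. The pairs Rab5a to Rab5c, Rab5a to Rab5b, Rab1a to Rab1b and Rab5b to Rab5c each reached that p of 0.1, the last with a ratio difference of only 0.29, and this is 0.55 after Benjamini-Hochberg adjustment over the 22 pairs in the exact test. This exact test could not reach 0.05 for any pair, whatever the ratios, so its p-values decide nothing here. Pairs were not tested in the fit over all genes. With the length and GC offset, the difference between the fitted log2 fold changes of Rab5a and Rab5c was 0.94, against 1.34 without it, and that between Rab5a and Rab5b 0.98, against 1.05.

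**Figure D2:**
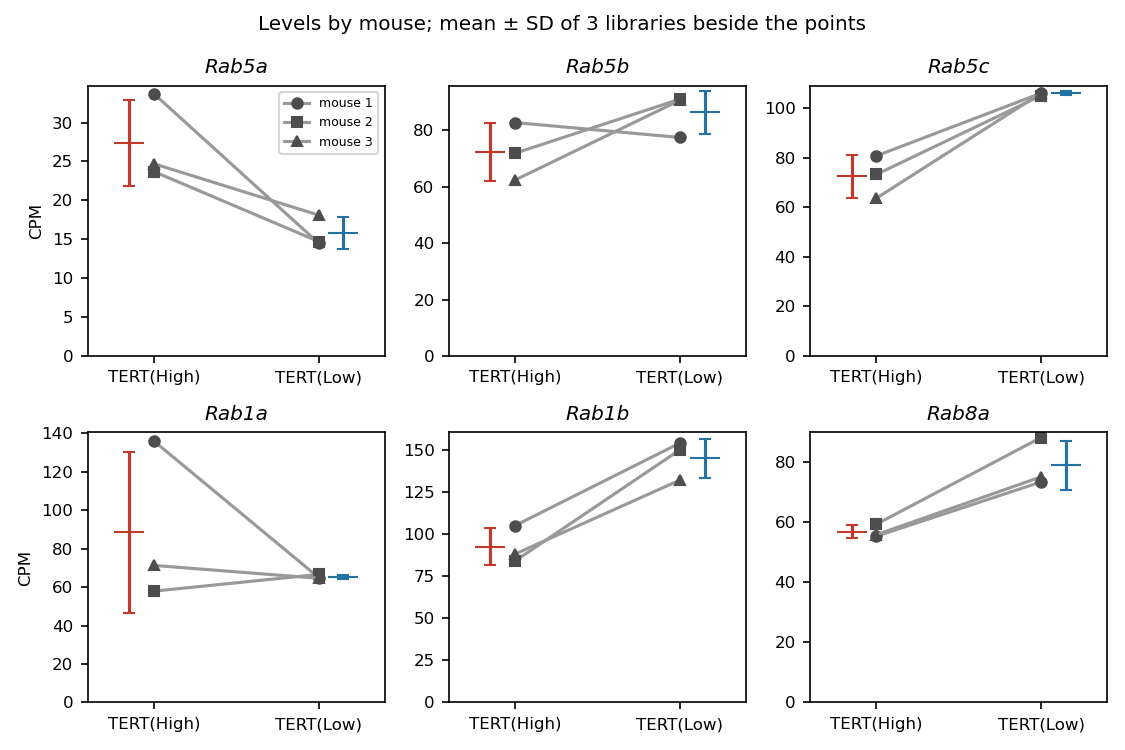
CPM (vertical axes, each starting at 0) of 3 Rab5 genes, 2 Rab1 genes and Rab8a in TERT(High), left, and TERT(Low), right; grey points joined by lines are the 2 populations of a mouse, and the coloured bars beside them are mean ± SD of 3 libraries. Rab5a is higher in TERT(High) in each mouse, Rab5c, Rab1b and Rab8a are lower in each mouse, and Rab1a is set apart by TERT(High) of mouse 1 at 136 CPM.

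Of the other early endosome members, Rab22a, which sorts cargo from early endosomes, averaged 14.7 ± 2.18 CPM in TERT(High), against 19.3 ± 2.28 CPM in TERT(Low) (SD, n = 3 each; log2 fold change -0.39). With the length and GC offset Rab22a was at -0.84 (edgeR adjusted p = 0.149), and it was called lower with the offset plus DESeq2. Rab17, a Rab of polarised epithelia, had a log2 fold change of -0.47 and Rab20, found on phagosomes and endosomes, one of -0.56. Exons of E230013L22Rik on the opposite strand cover 25.6% of the Rab20 transcript. Rab21, which acts in integrin endocytosis, had 0.14, and Rab31, which acts between the trans-Golgi and endosomes, had -0.35. None of these passed the main edgeR test.

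All 8 recycling members were tested, none was called, and the median was -0.18. Rab4a, which returns receptors from early endosomes by the fast route, averaged 24.5 ± 0.549 CPM in TERT(High), against 28.6 ± 1.13 CPM in TERT(Low) (SD, n = 3 each), with no overlap and a log2 fold change of -0.23 (SE 0.12). Rab4b had a log2 fold change of -0.66 (SE 0.28), but 85.2% of its transcript lies in exons of Gm21983 on the same strand. Rab11a, of the slow recycling route, had -0.28, and its paralog Rab11b had 0.04. Rab14, which links endosomes and the Golgi, had 0.21, while Rab12 and Rab35, which act in receptor recycling and turnover, had -0.13 and -0.02.

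Of the 10 members of late endosomes and lysosomes, 8 were tested, none was called, and the median was -0.28. Rab7, the Rab of late endosome maturation and lysosome fusion, on chromosome 6 from 87999106 to 88045270, had 145, 145 and 131 CPM in TERT(High), against 121, 145 and 144 CPM in TERT(Low). The groups overlapped and the log2 fold change was 0.03 (SE 0.14). Arl8a and Arl8b, which couple lysosomes to kinesin motors, had 0.06 and -0.03. Rab9, of retrieval to the trans-Golgi, had -0.18.

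Rab24, linked to autophagy, on chromosome 13 from 55319223 to 55321980, had 16.7, 12.7 and 10.5 CPM in TERT(High), against 22.6, 23.3 and 19.2 CPM in TERT(Low), with no overlap. It had a log2 fold change of -0.70 (SE 0.21, edgeR adjusted p = 0.0798). Exons of Prelid1 on the opposite strand cover 66.4% of its transcript, and Prelid1 averaged 107 ± 10.8 CPM in TERT(High), against 126 ± 16.9 CPM in TERT(Low) (SD, n = 3 each). Without a known strand setting, the reads of Rab24 and Prelid1 cannot be told apart. Rab29, which recruits the kinase LRRK2, averaged 6.66 ± 0.555 CPM in TERT(High), against 9.26 ± 0.645 CPM in TERT(Low) (SD, n = 3 each; log2 fold change -0.48, edgeR adjusted p = 0.1). Rab32 and Rab38, of lysosome-related organelles, had log2 fold changes of -0.38 and -0.72.

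Of the 12 members of exocytosis and polarised secretion, 10 were tested, none was called, and the median was -0.24. Rab8a, which carries Golgi and recycling vesicles to the cell surface, on chromosome 8 from 72161200 to 72181366, had 55.4, 59.4 and 55.9 CPM in TERT(High), against 73.5, 88.3 and 75.2 CPM in TERT(Low). The groups did not overlap, with a log2 fold change of -0.47 (SE 0.14, edgeR adjusted p = 0.0772). With the length and GC offset Rab8a was at -0.68 (edgeR adjusted p = 0.0982), and it was called lower with the offset plus DESeq2. Rab10, a close relative of Rab8 that moves glucose transporter vesicles in fat cells, averaged 49.2 ± 5.25 CPM in TERT(High), against 41.2 ± 4.93 CPM in TERT(Low) (SD, n = 3 each). It was higher in TERT(High) in each mouse without overlap of the groups, with a log2 fold change of 0.26 (SE 0.16, edgeR adjusted p = 0.341). Rab13, of tight junctions, had -0.02, and Rab3d and Rab27a, of regulated secretion, had -0.35 and -0.14. Rab8b was low, at 8 to 43 counts per library, and so was Rab27b, at 0 to 27 counts (log2 fold change -0.81, SE 1.29).

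The 6 members of cilia and tubulin folding had a median of -0.27, and none was called. Rab28, which acts at cilia, averaged 8.94 ± 0.510 CPM in TERT(High), against 13.4 ± 2.56 CPM in TERT(Low) (SD, n = 3 each), with no overlap and a log2 fold change of -0.59 (SE 0.18, edgeR adjusted p = 0.0906). Arl13b, the exchange factor for Arl3 in cilia, had 0.32 and Arl3, which releases lipidated cargo there, had -0.35. Arl6, which recruits the BBSome coat, had -0.19, Arl2, a partner of the tubulin cofactors, had -0.65, and Rab23, of hedgehog signalling, had 0.19. The 3 Arl4 genes, whose products recruit cytohesins to the plasma membrane, had log2 fold changes of -0.16 for Arl4a, -0.35 for Arl4c and 0.06 for Arl4d. Of 5 members outside these groups, Arl10 had -0.66, Rab40b -0.42, Rab40c -0.40, Arl16 -0.25 and Arl15 0.01. Rab40 proteins are the Rabs with a SOCS box that joins a ubiquitin ligase. None of these genes passed the test.

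The 4 members with the most negative log2 fold changes, Rab39b, Rab15, Rab6b and Rab3c, followed single libraries rather than the populations. Rab6b is known as a neuronal form of Rab6, Rab3c acts at synaptic vesicles, and Rab15 and Rab39b are known from neurons. Rab6b had 16, 4 and 207 counts in TERT(High), against 548, 0 and 144 in TERT(Low). Rab3c had 14, 33 and 145 counts in TERT(High), against 313, 32 and 100 in TERT(Low). The high libraries were TERT(High) of mouse 3 and TERT(Low) of mice 1 and 3 for both genes, so high and low values occurred in either population. Rab15 had 2, 0 and 56 counts in TERT(High), against 156, 0 and 39 in TERT(Low). Rab39b had 0, 0 and 12 counts in TERT(High), against 29, 0 and 14 in TERT(Low).

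The same 3 libraries carried the neuron and glia markers, a list of 16 genes added after the values were seen. None of the 16 was called, all 16 had a negative log2 fold change, and 9 of them, Map2 and Tubb3 included, were at 0 in some library. Per 100 counts of Snap25, a synaptic fusion protein, Rab6b had 45.8 counts in TERT(High) of mouse 3, against 42.4 and 35.1 in TERT(Low) of mice 1 and 3. Rab15 had 12.4 counts per 100 of Snap25 in that TERT(High) library, against 12.1 and 9.51 in those of TERT(Low). More than 90% of the summed CPM lay in these libraries for 6 of 70 members (Rab6b, Rab9b, Rab15, Rab26, Rab33a and Rab39b) and for 7.75% of all 15565 genes. The rest of that set, at most 29 counts in any library, had less even ratios to Snap25. Per 100 counts of Snap25, in the same order of libraries, Rab39b had 2.65, 2.25 and 3.41 and Rab26 had 1.99, 1.08 and 0.488. Rab9b had 1.33, 0.93 and 2.44, and Rab33a had 1.55, 0.775 and 0.976. The part of neuron and glia RNA in these values was not tested. Fitted log2 fold changes were -1.68 (SE 1.81) for Rab39b, -1.53 (SE 1.97) for Rab15, -1.40 (SE 1.78) for Rab6b and -1.06 (SE 0.99) for Rab3c, none with an edgeR adjusted p below 0.541. Leaving the 3 tested members of the 90% set out moved the median of the members only to -0.19.

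Rab3b and Rab3a, further Rabs of regulated exocytosis, also crossed the limit set for paralogs, a difference above 1 on the log2 scale. Rab3b had 0.359, 0.281 and 0.703 CPM in TERT(High), against 0.177, 0.420 and 0.322 CPM in TERT(Low). Rab3a had 3.49, 1.75 and 3.38 CPM in TERT(High), against 6.27, 3.21 and 3.51 CPM in TERT(Low). The groups overlapped for both, with log2 fold changes of 0.55 (SE 0.59) for Rab3b and -0.59 (SE 0.38) for Rab3a. In all, 6 of the 22 pairs crossed that limit, and Rab3b to Rab3a, Rab3b to Rab3c and Rab6a to Rab6b had overlapping count ratios.

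The 6 untested members were all at low counts. Rab7b had 18, 1 and 9 counts in TERT(High), against 1, 1 and 5 in TERT(Low), and Rab39 had 7, 1 and 4 against 0, 0 and 5. Rab9b, Rab26, Rab33a and Rab37 had at most 14 counts in any library, and their higher values again fell in the libraries with neuron and glia markers.

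**Figure D3:**
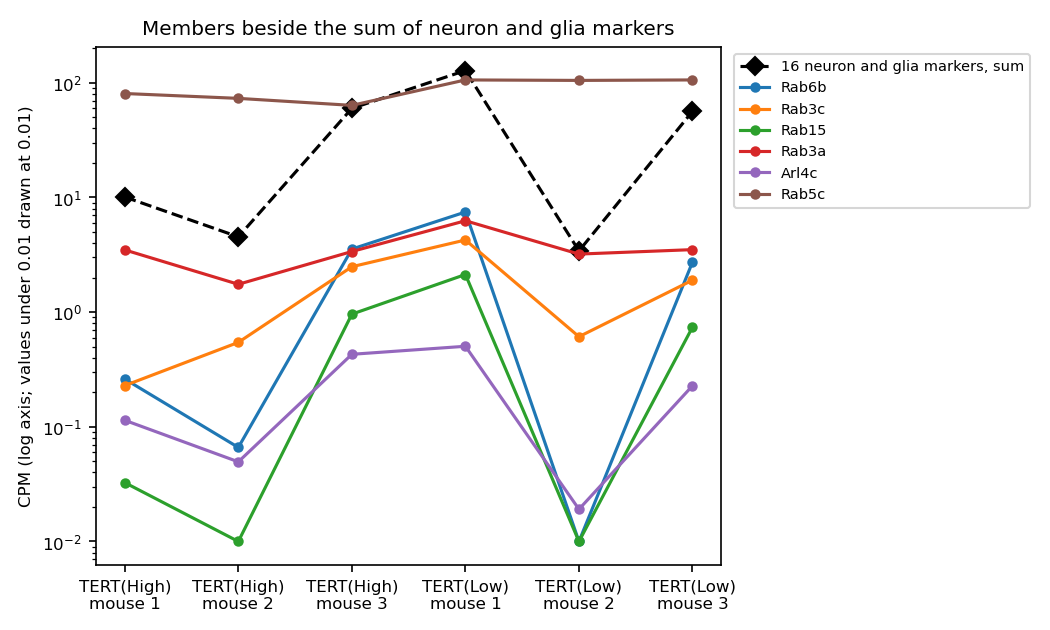
CPM (log axis) of 6 members and the summed CPM of 16 neuron and glia markers (dashed line, diamonds) in the 6 libraries; lines only join the points of a gene, and values under 0.01 are drawn at 0.01. Rab6b, Rab15, Rab3c and Arl4c are high in the libraries where the marker sum is 56.4 to 128 CPM. Rab3a overlaps, with 3.38 to 6.27 CPM in those libraries and 1.75 to 3.49 CPM in the others. Rab5c stays between 63.6 and 106 CPM in all.

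Levels can be compared between genes only per transcript length. By mean CPM per kilobase over both populations, the order was Rab7 at 64.2, Rab1b at 62.1, Rab18 at 53.1, Rab5c at 45.3, Rab1a at 29.0 and Arl1 at 28.6. With the transcripts used, the lead changed with the population: in TERT(High) Rab7 had 65.0 and Rab1b 48.2 CPM per kilobase, while in TERT(Low) Rab7 had 63.4 and Rab1b 76.0. The transcript used for Rab1b was 1913 nt, against a median of 757 nt over its coding transcripts. For Rab7 these lengths were 2159 and 1758 nt, so the order of these genes depends on the transcript chosen. Rab5a was at 11.6 CPM per kilobase in TERT(High) and 6.67 in TERT(Low), below Rab5c at 36.9 and 53.7 in the same populations.

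Genes that act on Rab and Arl proteins were taken from 7 lists of 184 genes, of which 179 were tested. By the edgeR test 15 of them rose and 6 fell, read against the 8.14% called over all genes. With any 1 library except TERT(High) of mouse 1 left out, edgeR called 0 of them, as of all genes, while DESeq2 called 19 to 42 higher and 9 to 23 lower over the 6 libraries left out in turn. Endothelial markers, 2 of 11 called higher, lay higher in TERT(High) too, and their part in these calls was not tested. Of 8 genes for prenylation and membrane extraction, Rabac1, an acceptor protein that binds prenylated Rabs, fell to 43.9 ± 8.65 CPM in TERT(High), against 87.3 ± 6.87 CPM in TERT(Low) (SD, n = 3 each; log2 fold change -0.99, SE 0.18, edgeR adjusted p = 0.0321). The other 7 did not pass, among them the escort protein gene Chm at 1.12 (SE 0.34).

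Of 46 tested exchange factor genes, 6 rose and 3 fell (19.6% called), with a median log2 fold change of 0.27. The DENN domain genes Dennd4a (1.49), Dennd4c (1.46), Dennd5b (1.24) and Dennd1b (1.19) were named by size of change among those called, while Rin3 (1.41), Rin2 (1.33) and Rin1 (-1.23), exchange factors for Rab5, did not pass. Dennd4a averaged 12.5 ± 2.02 CPM in TERT(High), against 4.44 ± 0.415 CPM in TERT(Low) (SD, n = 3 each; edgeR adjusted p = 0.0274). The other calls, named here after their values were seen, were Gapvd1 (0.97), an exchange factor for Rab5, and 4 subunits of TRAPP, the exchange complex for Rab1. Trappc8, a subunit of its larger form, rose (1.19), while the core subunits Trappc6a (-0.80), Trappc3 (-0.74) and Trappc4 (-0.67) fell.

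Of 38 tested GAP genes, 3 rose and 0 fell (7.89% called), and the median was 0.44. They were Evi5 (1.56), which acts on Rab11, Rabgap1l (1.41) and Tbc1d32 (1.21), a ciliary member of the family. Of 36 tested effector genes, 5 rose and 0 fell (13.9% called), with a median of 0.74. Exph5 (1.84) binds Rab27, Eea1 (1.66) and Rabep1 (1.34) bind Rab5 on early endosomes, Rab11fip1 (1.08) binds Rab11, and Uso1 (1.05), named after its value was seen, is the tether that Rab1 recruits. Eea1 averaged 5.76 ± 2.43 CPM in TERT(High), against 1.81 ± 0.425 CPM in TERT(Low), and Rabep1 averaged 12.6 ± 3.17 CPM in TERT(High), against 4.97 ± 0.449 CPM in TERT(Low) (SD, n = 3 each).

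Of 37 Arl regulators and effectors, Kxd1 (-0.57), a subunit of the BORC complex that recruits Arl8 to lysosomes, fell and none rose, with a median of -0.18. Of 9 Arf and Sar1 GTPases, Trim23 (0.98), an Arf-domain ubiquitin ligase, rose, Arf5 (-0.72) fell, and the median was -0.18. None of the 5 Rab-like GTPases passed by edgeR, and the smallest p belonged to Ift27 (-0.60, edgeR adjusted p = 0.0907) and Ift22 (-0.51, edgeR adjusted p = 0.161), both of intraflagellar transport. At an unadjusted p under 0.05, against 16.3% higher and 12.4% lower over all genes, effectors had 15 higher and 0 lower (41.7% and 0.00%) and GAPs 13 and 1 (34.2% and 2.63%). Exchange factors had 12 higher and 8 lower (26.1% and 17.4%), Arl regulators and effectors 4 and 10 (10.8% and 27%), and Arf and Sar1 genes 1 and 3. The prenylation list had 1 higher and 3 lower, and the Rab-like list 0 and 2. The lists differ in transcript length. The median transcript was 4234 nt for exchange factors, 4327.5 nt for GAPs and 4251.5 nt for effectors, against 2581.5 nt for the tested Rab and Arl genes and 2933.5 nt for all genes. With the length and GC offset 0 pathway genes rose or fell by edgeR, while over all genes that offset also left 0 calls, so this fit cannot show which changes remain. Calls over all genes came back with the offset plus a mouse block (483 higher and 112 lower). With the offset plus DESeq2 they were 719 higher and 337 lower. The part of transcript length in the differences between the lists was not tested.

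Within the family, the coding sequences are of like size, from 522 to 1284 nt with a median of 639 nt, against a median of 1398 nt over all genes. Transcripts ran from 843 to 9456 nt, so most of their spread lies in the untranslated regions. As a description across 64 genes, which are not independent and share all 6 libraries, the log2 fold change had a Spearman rho of 0.17 with transcript length, -0.20 with coding length and -0.43 with the GC content of the transcript. Across 12546 tested genes with a transcript the values were 0.48, 0.51 and -0.27. The 22 shortest transcripts, up to 1861 nt, had a median log2 fold change of -0.45, and 18 of them were negative. The 20 middle ones and the 22 longest, from 3364 nt, each had a median of -0.13. Among the paralogs, the transcript of Rab5a is 42.3% GC and that of Rab1a 40.8%, against 54.7% for Rab5c and 58.9% for Rab1b.

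**Figure D4:**
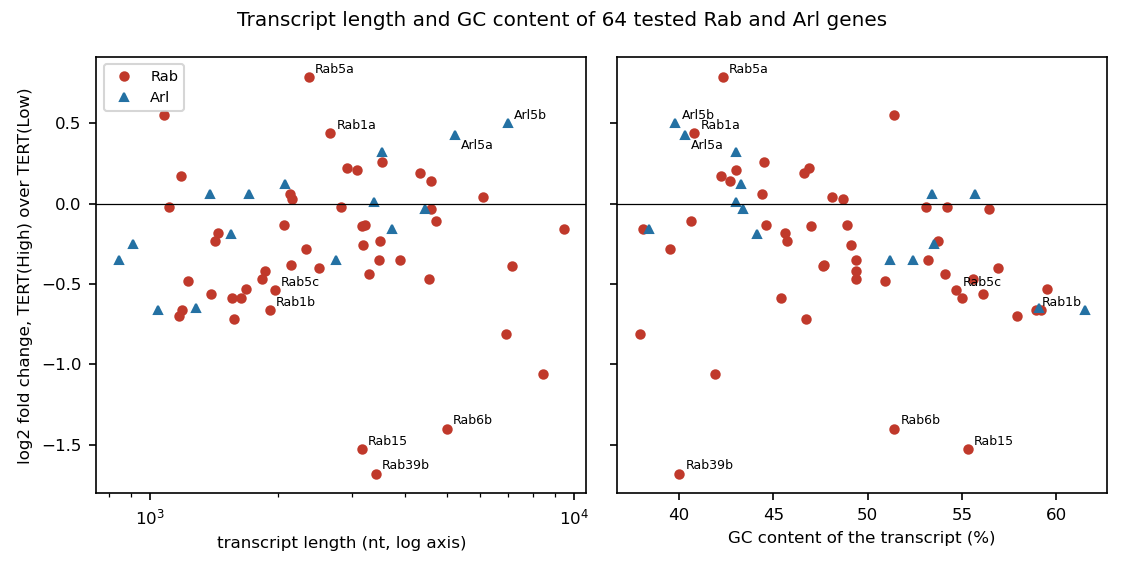
Log2 fold change of TERT(High) over TERT(Low) (vertical axis) of the 64 tested Rab (circles) and Arl (triangles) genes against transcript length (left, log axis, nt) and GC content of the transcript (right, %); each point is a gene. Values fall toward higher GC content (rho = -0.43), with Rab5a at 42.3% and Rab1b at 58.9%, and the relation with length is weaker (rho = 0.17).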

How the data were processed

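The authors deposited raw counts per gene and library, with no scaling, per the file headers named by Entrez number and symbol, and a table of results. That table's log2 fold changes, p-values and baseMean (a signal scaled by size factors) are those of the authors' DESeq2 comparison, per the file headers. The submitters' processing notes name TopHat2 2.0.13, Trim Galore 0.4.0, DESeq2 and the genome mm10, and per the labels' protocols RNA came from an RNeasy micro kit and libraries from the KAPA stranded mRNA kit. How reads were counted, by which strand setting and on which annotation, is not stated in those notes or labels, so overlapping genes are uncertain.

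Counts were tested with edgeR 4.0.16 in R 4.3.3 (filterByExpr, TMM, robust quasi-likelihood, group alone) over all 13288 genes that passed, with Benjamini-Hochberg adjusted p under 0.05. The SE is the absolute log2 fold change over the root of F, and the common coefficient of variation was 40.7%. Ratios within a mouse used CPM plus 0.1. DESeq2 1.42.0 and limma-voom (limma 3.58.1, with sample weights) were alternatives, among 30 planned and 2 added after seeing the data. Both libraries of a replicate number come from the same mouse, per the labels. Within a mouse, the 2 libraries' deviations from the means of their populations correlated at -0.089, 0.733 and 0.601 for mice 1, 2 and 3, and a mouse block lowered the coefficient of variation to 29.6%.

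Coordinates are from RefSeq for GRCm38.p6 (99.7% of genes matched), transcripts and sequences from GENCODE M21 (93.0% of genes), using for each gene the supported transcript with the longest coding sequence. Overlap is the share of that transcript's exonic bases in exons of other genes. Members, role lists, pathway lists and markers were chosen with earlier results of these data known. Members were named by role, with all 6 libraries given for those called, the 6 highest by CPM per kilobase, the 4 largest log2 fold changes in each direction and paralogs differing by more than 1, and of each pathway list up to 4 called genes with the largest change, or the 2 of smallest p. Figures used matplotlib 3.10.9 in Python 3.11.15.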

Additional observations from a re-analysis of the deposited data

How the results depend on the processing

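The number of members called depended on the setting. Members called higher numbered 0 in the main edgeR test. They numbered 1, Rab5a, with DESeq2, with DESeq2 and the mouse block, with limma-voom and at an adjusted p under 0.1. Rab5a was also the 1 member called higher with the length and GC offset plus block, an edgeR fit, and with the offset plus DESeq2. Members called lower numbered 1 in the main test, 3 with upper-quartile scaling, 6 with DESeq2, 4 with DESeq2 and the block, 4 with limma-voom, 4 with the offset and DESeq2, and 5 at an adjusted p under 0.1. With the offset and DESeq2 these were Rab11a, Rab22a, Rab30 and Rab8a, so Rab1b was not among them, and with the offset plus block the 1 called lower was Rab30. They numbered 0 with DESeq2 size factors in edgeR, library totals alone, no filter, the offset alone, an adjusted p under 0.01, and, by edgeR and by DESeq2, without the 3 libraries with neuron and glia markers, a fit with 1 TERT(Low) library, whose spread is assumed to be that of TERT(High). With 1 library or mouse left out, 0 to 1 were called higher and 0 to 8 lower. By edgeR all genes then fell to 0 calls except without TERT(High) of mouse 1, where 3 members were lower. With the replicate block in edgeR, which pairs the libraries of a mouse, Rab1b had an adjusted p of 0.045 and was still the 1 member called. Without the offset, the block changed no other member's call in edgeR.

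The median of the members was -0.06 with library totals alone, which put the median of all genes at 0.14, against -0.01. It was -0.30 to -0.13 with a library or mouse left out. Its difference from the median of all genes was -0.31 to -0.12 over the settings run.

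Of the pathway genes, 15 were called higher and 6 lower. Higher calls numbered 35 with DESeq2, 39 with DESeq2 and the block, 32 with limma-voom and 33 at an adjusted p under 0.1. Lower calls numbered 11 with upper-quartile scaling, 3 with no filter, 10 with the strict filter (50 counts in 3 libraries), 15 with DESeq2, 14 with DESeq2 and the block, 14 with limma-voom and 15 at an adjusted p under 0.1. Both were 0 with the offset alone, at an adjusted p under 0.01 and without the 3 libraries with neuron and glia markers. Lower calls were also 0 with library totals alone and with the offset plus block or DESeq2. With 1 library or mouse left out, edgeR called 0 to 23 higher and 0 to 12 lower. DESeq2 called 42 higher and 23 lower without TERT(High) of mouse 1, and 11 and 10 lower without that of mouse 2 and 3. It called 25 and 29 higher without TERT(Low) of mouse 1 and 2, and 12 and 18 lower without that of mouse 1 and 3.

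Signs turned mainly for members near 0 or with 1 library far from the rest. With 1 library or mouse left out, the edgeR log2 fold change was -0.30 to 0.30 for Arl1, -0.35 to 0.44 for Rab18, -0.07 to 0.69 for Rab1a, -0.07 to 0.11 for Rab7, -0.31 to 0.05 for Rab6a, -5.70 to 0.37 for Rab15, -2.70 to 0.27 for Rab3c and -4.53 to 0.40 for Rab6b. The difference between Rab6a and Rab6b was then -0.69 to 4.36, and it was -0.10 with DESeq2 and the block. By DESeq2 without TERT(High) of mouse 1, Arl1 was at -0.30, Rab18 at -0.35, Rab1a at -0.07 and Rab7 at -0.03. With mouse 2 dropped from TERT(High), DESeq2 put Rab7 at -0.02. With mouse 1 dropped from TERT(Low), it put Rab7 at -0.07 and the difference between Rab6a and Rab6b at -0.01. With limma-voom, Arl1 was at -0.10 and Rab18 at -0.13. Rab7 was at -0.01 with upper-quartile scaling and Rab6a at 0.04 with library totals alone. Arl5b was at -0.25 with the offset and at -0.27 with the offset plus block or DESeq2, and Kxd1 at 0.01 with the offset and 0.02 with the offset plus block. Without the 3 libraries with neuron and glia markers, Rab7 was at 0.00 (edgeR) and -0.01 (DESeq2), Rab3b at -0.39 with both, and the difference between Rab3b and Rab3a at -0.10 (edgeR) and -0.11 (DESeq2). The causes were not tested. Settings that left a population at 0 counts for a gene gave no value.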
